A study of Mus musculus with 22 samples.

Results

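Untreated primary chondrocyte cultures from Dnmt1 conditional knockout (cKO) and control mice were compared across all expressed genes. They were 6 of the 22 samples of the series, 3 cKO and 3 control libraries labelled day 0, and all 6 were used. The cKO genotype is given as Prrx1-Cre;Dnmt1 flox/flox, in which Cre is driven by the limb mesenchyme promoter of Prrx1, and the control genotype as Dnmt1 flox, with no Cre named. The tissue of origin is labelled knee articular cartilage of newborn mice, postnatal day 3 to 5, and the cell type chondrocyte. The genotype effect in these cultures was set beside that of 8 culture libraries of the same genotypes, 4 of each, labelled as treated with BMP2 at 100 ng/µl for 3 days (day 3). The other 8 samples were cartilage tissue and were not used here. RNA was made into libraries with a stranded kit. Nothing beyond the words "biol rep" says that replicates came from separate animals, so p-values measure the spread between these libraries, which may be technical.

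Dnmt1 is the maintenance DNA methyltransferase, which copies CpG methylation onto the new strand when DNA is replicated. Cells that divide without it lose methylation step by step, and genes held silent by methylation, above all germline genes, imprinted alleles and endogenous retroviruses, can become expressed. Chondrocytes make a matrix of type II collagen and aggrecan, live at low oxygen and draw much of their energy from glycolysis. BMP2 is a growth factor of the bone morphogenetic protein family that is used to drive their maturation.

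Library totals were 46911436 to 50701451 counts in control and 41749327 to 51741478 counts in cKO cultures at day 0, and 14434197 to 18918714 counts at day 3. Levels are given as CPM, counts per 1000000 counts after TMM scaling, and changes as the log2 ratio of cKO over control. The chi-square per degree of freedom between replicate libraries was 5.61 to 16.0 at day 0. At day 3 it was 7.42 to 30.2, except for the pairs with cKO replicate 4, which had 124 to 138 and stood apart from the other 3. The Y-linked Ddx3y was at 138 CPM in control replicate 3 and 110.4 CPM in cKO replicate 3, and at most 1.06 CPM in the other 4 day 0 libraries, so each genotype held 1 such library. The days lay in separate tables that were normalized separately, and day, BMP2 and table changed together, so that levels at the 2 days are set side by side without a test.

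Dnmt1 itself (chromosome 9, 20907209 to 20959888, GRCm38) had 159, 147 and 148 CPM in the 3 control libraries and 26.3, 25.7 and 31.3 CPM in the 3 cKO libraries at day 0. Every cKO library was below every control library, and the transcript fell by 2.44 on the log2 scale (SE 0.0718, edgeR adjusted p 1.62e-08). At day 3 it fell by 1.41 on the log2 scale. The difference between the days was not called (1.02 ± 0.394 SE, edgeR adjusted p 0.0968).

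Of 15530 genes tested at day 0, 10023 were called at an adjusted p under 0.05 (64.5%). Of all tested genes 33.0% were higher and 31.6% lower in cKO cultures, and these shares are the background for every count of list members below. For 70.3% of the tested genes the cKO and control libraries had no overlap. At day 3 the share called was 48.1% (25.5% higher and 22.6% lower), and 47.9% had no overlap. The difference between the genotype effects of the days, tested in 1 fit of the 14 culture libraries and named the interaction below, was called for 2509 of 14909 genes (16.8%). The median SE of a log2 fold change was 0.0730 at day 0 and 0.141 at day 3, so smaller effects could be called at day 0. The interaction count moved with single libraries. It was 4051 without cKO replicate 4 of day 3, 1604 without cKO replicate 3 of day 0, and 1591 and 1668 without control replicates 2 and 3 of day 0.

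The genes called at day 0 fell into 4 groups by what they showed at day 3. The largest group, 4979 genes (49.7%), was called in the same direction at both days. A further 3962 (39.5%) were not called at day 3, but the interaction was called for 639 of these, so that for most of them a difference between the days was not shown. Another 732 (7.30%) did not pass the expression filter at day 3. The remaining 350 genes were called in the opposite direction, 338 of them with the interaction called as well. Genes called with at least a 2-fold change, 16.1% of those tested, were spread over these groups as follows. Of the 1756 higher by at least 1 on the log2 scale, 28.0% were under the filter at day 3 and 10.8% were not called there. Of the 742 lower by as much, these shares were 18.9% and 20.4%.

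**Figure D1:**
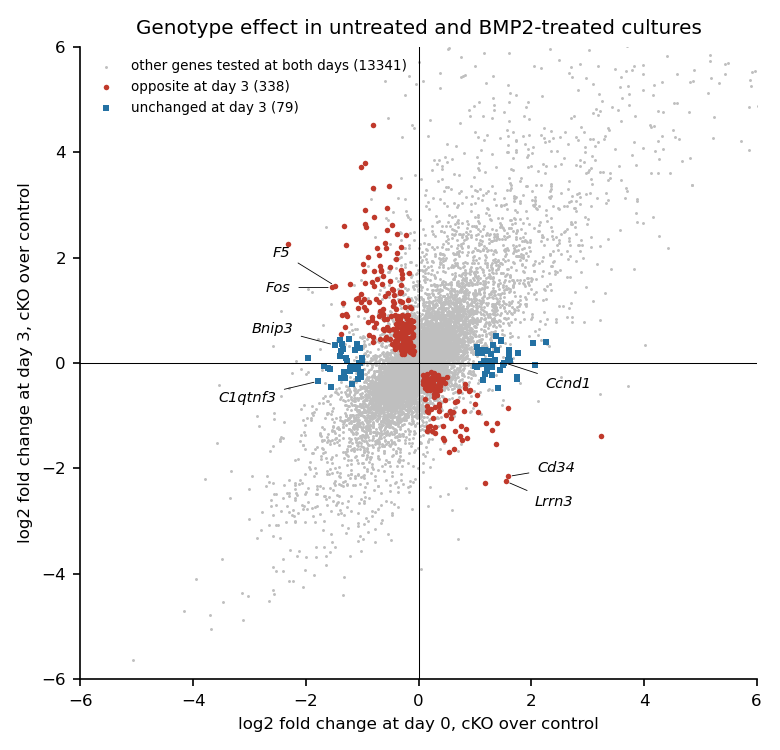
Log2 fold change of cKO over control at day 0 (horizontal axis) and at day 3 (vertical axis) for the 13758 genes tested at both days, 1 point per gene. Red circles are the 338 genes with opposite calls and a called interaction, blue squares the 79 genes changed at least 2-fold at day 0 and within 2-fold at day 3, and 203 genes lie outside the axes. Most genes lie in the quadrants where both days share a sign, and the opposite genes fill the other 2 quadrants.

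By absolute level, only protein-coding genes were ranked. The 8 with the largest fall in mean CPM in untreated cKO cultures were Col2a1, Col11a1, Col11a2, Acan, Col9a1, Col9a3 and Matn1, which encode cartilage matrix proteins, and Igf2. Igf2, an imprinted growth factor gene, went from 12403 ± 390.4 CPM (SD, n = 3) to 1994 ± 258 CPM (SD, n = 3), or −2.64 on the log2 scale (SE 0.109, edgeR adjusted p 1.20e-07). Col11a2, a chain of the type XI collagen that forms fibrils with type II, went from 8982 ± 396 to 1563 ± 302 CPM (SD, n = 3 each). Matn1, a cartilage matrix protein, was at 3315, 3237 and 3022 CPM in control and 164, 332 and 208 CPM in cKO libraries, with no overlap. Noct, D10Wsu102e and Slc38a6 rose most in CPM. They are among 5 genes set apart as carrying repeats, a list chosen with these data known (Noct, Slc38a6, Sirt5, Rab3gap1 and D10Wsu102e). The summed level of the 5 was 523 to 538 CPM in control and 70350 to 75577 CPM in cKO libraries at day 0, and 603 to 813 against 39591 to 83024 CPM at day 3. All 5 rose at both days. Genes with placeholder names (Gm numbers and Rik, AA, BC or AI names) were not named. Apart from these and the 5 repeat-carrying genes, the 8 protein-coding genes with the largest rise were Thbs1, Fn1, Peg10, Vim, Hspa8, Hsp90ab1, Actb and Actg1. Thbs1, a secreted adhesive glycoprotein, had 11423, 10934 and 11424 CPM in control and 17529, 15916 and 17277 CPM in cKO libraries (log2 fold change 0.59, SE 0.0993, edgeR adjusted p 6.65e-04). At day 3 Thbs1 was not called (0.38, edgeR adjusted p 0.236), and its interaction was not called either (edgeR adjusted p 0.624). Peg10, an imprinted gene of retrotransposon origin, was at 328, 338 and 349 CPM in control and 2726, 2366 and 2633 CPM in cKO libraries at day 0, the steepest rise among these 8 (log2 fold change 2.93, SE 0.0655, edgeR adjusted p 2.77e-09). At day 3 it had 734, 647, 630.5 and 564 CPM in control and 1269.5, 1370.5, 1357 and 428 CPM in cKO libraries. There cKO replicate 4 lay below all controls and the other 3 cKO libraries above them. Peg10 was not called at day 3 (edgeR adjusted p 0.0775), but without cKO replicate 4 it was (1.04, edgeR adjusted p 1.63e-05). The smaller effect at day 3 was called in the interaction (−2.16, edgeR adjusted p 0.00458). When all 14 libraries were fitted together, Fn1, Actg1, Col2a1 and Acan lost their day 0 call (edgeR adjusted p 0.114, 0.0559, 0.134 and 0.0634).

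The 338 genes with opposite effects were defined by their calls, so their values are descriptions with no test of their own. They comprised 114 that were higher and 224 that were lower in cKO cultures at day 0. Most of these effects were small. The median log2 fold change of the first set was 0.33 at day 0 and −0.51 at day 3, and of the second −0.36 and 0.75. Only 8 and 13 of them reached 1 on the log2 scale at both days. In 275 of the 338 the groups did not overlap at either day. Over all tested genes the share without overlap was 70.3% at day 0 and 47.9% at day 3. Calls and lack of overlap went together, with 9898 of the 10023 genes called at day 0 not overlapping there. By the definition of these sets, control and cKO levels had to move differently between the days, so the counts that follow only describe them. Among the 114 genes, the control mean was higher at day 3 than at day 0 in 93 and the cKO mean in 31. Among the 224 genes, the control mean was higher at day 3 in 79 and the cKO mean in 180.

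Among the 12 leading genes that were higher at day 0 and lower at day 3, several encode surface and matrix proteins of fibroblasts and vessels. These 12, and the 12 of the other direction, were named only if the groups did not overlap at either day. Cd34, a sialomucin of progenitor and stromal cells, had 4.68, 2.88 and 2.39 CPM in control and 11.1, 7.77 and 11.1 CPM in cKO libraries at day 0. The day 3 values were 3.65, 15.4, 19.2 and 7.77 CPM in control and 2.74, 2.27, 3.61 and 1.72 CPM in cKO libraries. The groups did not overlap at either day, and the log2 fold change went from 1.59 (SE 0.234, edgeR adjusted p 2.78e-04) to −2.15 (SE 0.494, edgeR adjusted p 0.00712). Thy1, another surface glycoprotein of stromal cells, went from 0.68 to −0.73, and its day 3 call was lost without control replicate 2 (−0.59, edgeR adjusted p 0.0653). Lrrn3, a leucine-rich repeat membrane protein, was near 1 CPM in control cultures at day 0 (1.09, 1.14 and 1.02) against 2.72, 3.04 and 3.75 CPM in cKO. Levels at day 3 were 38.9, 58.5, 74.8 and 43.5 CPM in control and 9.03, 13.98, 17.5 and 4.84 CPM in cKO libraries. Eln, which encodes elastin, was at 77.7, 69.0 and 58.6 CPM in control and 87.5, 128 and 256 CPM in cKO libraries at day 0. Its cKO replicates were wide apart, yet all lay above the controls (1.20, SE 0.326, edgeR adjusted p 0.00979). At day 3 the cKO libraries were the lower ones (−1.15, SE 0.208, edgeR adjusted p 0.00229).

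The rest of these 12 had day 0 effects of 0.46 to 1.03 on the log2 scale. Efemp1, an elastic fibre glycoprotein, was at 0.81 and −0.92 on the log2 scale at the 2 days, and its day 3 call was lost without control replicate 2 or 3 (edgeR adjusted p 0.0532 and 0.0548). The sulfotransferase gene Chst7, on the X chromosome, went from 1.03 to −0.61. Grk5, a kinase that shuts off G protein-coupled receptors, had 22.3, 20.3 and 22.1 CPM in control and 32.8, 31.8 and 36.0 CPM in cKO libraries at day 0. At day 3 Grk5 had 30.3, 39.6, 34.9 and 32.3 CPM in control and 15.1, 13.8, 14.1 and 12.9 CPM in cKO libraries, the smallest SE of the difference among the 12 (interaction −1.95, SE 0.131, edgeR adjusted p 5.40e-06). The mitochondrial sulfurtransferase Tst (0.56 and −0.91), the carbonyl reductase Dcxr (0.72 and −0.54), the tendon transcription factor Mkx (0.48 and −0.99) and the Eph receptor ligand Efnb2 (0.46 and −0.71) followed, with the log2 fold change at day 0 and at day 3 in brackets. Mkx and Efnb2 were not called at day 0 when all 14 libraries were fitted together (edgeR adjusted p 0.0953 and 0.0590).

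Mertk and Gas6, a receptor tyrosine kinase and its ligand, both reversed and did so in opposite senses. Mertk was at 23.3, 22.4 and 22.6 CPM in control and 28.2, 33.0 and 42.5 CPM in cKO libraries at day 0 (0.61, edgeR adjusted p 0.00218), and at −0.93 at day 3 (edgeR adjusted p 0.00165). Gas6 was at 53.9, 56.0 and 54.3 CPM in control and 30.8, 30.4 and 25.3 CPM in cKO libraries at day 0 (−0.93, edgeR adjusted p 4.45e-06), and at 1.01 at day 3 (edgeR adjusted p 0.00218). For neither gene did the groups overlap at either day, which the rule for naming them required. They were set together after their values were seen.

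Among the 12 leading genes that were lower at day 0 and higher at day 3, Fos and Fosb encode subunits of the AP-1 transcription factor. Fos had 86.3, 84.3 and 75.6 CPM in control and 32.5, 28.3 and 24.6 CPM in cKO libraries at day 0. At day 3 Fos had only 2.25, 1.95, 5.51 and 2.10 CPM in control and 7.52, 8.78, 7.87 and 7.84 CPM in cKO libraries, so that both genotypes were far lower and their order was turned. The log2 fold change was −1.53 (SE 0.0928, edgeR adjusted p 1.08e-06) at day 0 and 1.44 (SE 0.331, edgeR adjusted p 0.00729) at day 3. Fosb showed the same order, −0.98 and 1.06. Not every immediate early gene reversed: Fosl1 rose at both days (2.79 and 3.08), and so did Junb (1.21 and 2.94). Of the 20 genes on the list of immediate early genes, 10 rose and 5 fell at day 0, and 13 rose and 0 fell at day 3. On this list 3 genes had opposite calls with the interaction called.

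Several of these 12 act outside the cell. Gpx3, the secreted glutathione peroxidase, had 13.4, 13.8 and 10.3 CPM in control and 7.21, 5.85 and 6.38 CPM in cKO libraries at day 0 (−0.95, edgeR adjusted p 1.48e-04). After BMP2 the levels were 16.2, 13.1, 14.1 and 17.6 CPM in control and 172, 201, 163 and 310.1 CPM in cKO libraries, the largest difference between the days among these 12 (4.72, SE 0.291, edgeR adjusted p 4.88e-06). Cemip, which takes part in hyaluronan breakdown, went from −0.94 to 2.58, but its day 0 call rested on single libraries and was lost without control replicate 1 (−0.76, edgeR adjusted p 0.0782) or 2 (−0.92, edgeR adjusted p 0.0514). With all 14 libraries in 1 fit Cemip and Pamr1 lost their day 0 call (−0.93 and −0.95, edgeR adjusted p 0.110 and 0.0676). The serine protease Fap (−1.21 and 1.496), coagulation factor F5 (−1.48 and 1.46), the secreted Pamr1 (−0.96 and 2.90) and the membrane proteins Lrp4 (−1.07 and 1.05) and Pcdh1 (−0.97 and 1.76) reversed as well. For F5 the cKO libraries were wide apart at day 0 (8.66, 3.30 and 2.36 CPM), all below the controls. Fam167a (−1.32 and 2.60) and Dusp27 (−1.02 and 1.15) completed the 12.

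**Figure D2:**
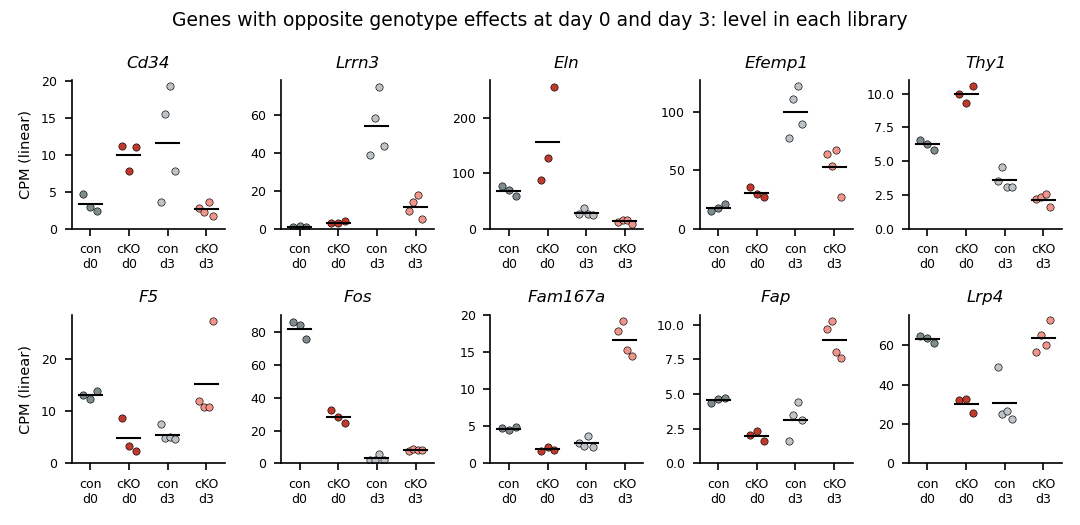
Level in CPM (linear axis) of the 5 leading genes of each direction among those with opposite effects, 1 point per library and a bar at each group's mean, for control (grey) and cKO (red) cultures at day 0 (d0, n = 3 each) and day 3 (d3, n = 4 each). In each panel the cKO points lie on 1 side of the control points at day 0 and on the other side at day 3, which the rule for naming these genes required.

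Glycolytic genes were mostly lower in untreated cKO cultures and mostly not lower after BMP2. Of the 23 genes on the list, which run from glucose transporters to lactate exporters, 17 fell and 4 rose at day 0, with a median of −0.53 against 0.01 over all tested genes. At day 3, 3 fell and 9 rose (median 0.19, against 0.01 over all). The interaction was called for 12 of the 23, always with the higher effect at day 3, a call that 9.94% of all genes had. It was called for 11 to 19 when any 1 library was left out, most without cKO replicate 4 of day 3. With replicate numbers as a block in the fit it was called for 8. With all 14 libraries in 1 fit, 13 fell and 4 rose at day 0. The 5 genes that reversed, named here for that after their values were seen, were Pfkfb3, Slc16a3, Aldoa, Tpi1 and Gapdh. Slc16a3, the lactate exporter MCT4, was at 47.0, 56.6 and 54.6 CPM in control and 44.2, 33.9 and 28.1 CPM in cKO libraries at day 0. At day 3 Slc16a3 was at 10.9, 16.8, 15.7 and 23.7 CPM in control and 97.6, 73.6, 92.0 and 40.4 CPM in cKO libraries. Its log2 fold change went from −0.58 to 2.18 (interaction edgeR adjusted p 0.00103). The cKO libraries were the lower ones before BMP2 and the higher ones after it, with no overlap at either day. Slc16a3, Tpi1 and Gapdh lost their day 0 call when all 14 libraries were fitted together. The day 3 call of Pfkfb3 (−0.79 and 0.68) was lost without any 1 of cKO replicates 1 to 3 or control replicates 1 to 3 (0.53 to 0.69, edgeR adjusted p 0.0703 to 0.100).

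At the entry of the pathway the day 0 fall was found without a called rise at day 3. Hk2, the hexokinase that traps glucose in the cell, was at 115, 119 and 122 CPM in control and 58.1, 57.6 and 53.5 CPM in cKO libraries at day 0, with no overlap (−1.08, SE 0.0407, edgeR adjusted p 7.00e-08). At day 3 its log2 fold change was −0.10 (95% interval −0.38 to 0.17). The glucose transporter Slc2a1 showed −0.85 and 0.06, and the phosphofructokinase Pfkl −0.97 and 0.37, neither called at day 3. Without cKO replicate 4 Pfkl was called higher there (0.51, edgeR adjusted p 0.00769). Aldoc and Ldhb fell at both days (−1.46 and −1.74 for Aldoc, −1.05 and −0.95 for Ldhb).

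The hypoxia response list also had more members lower at day 0 and more higher at day 3. Its members are genes that the oxygen-regulated factor Hif1a is known to activate, together with its own regulators. Of 19, 11 fell and 5 rose at day 0 (median −0.30), while 3 fell and 9 rose at day 3 (median 0.36), or 6 to 11 when any 1 day 3 library was left out, fewest without cKO replicate 1 and most without cKO replicate 4. The 4 that reversed were Vegfa, Hif1a, Egln1 and P4ha2. The growth factor gene Vegfa was at 100.4, 106 and 106 CPM in control and 62.4, 69.0 and 61.2 CPM in cKO libraries at day 0, and at 68.3, 70.9, 58.7 and 76.0 CPM in control and 157, 151, 148 and 153 CPM in cKO libraries at day 3. The groups did not overlap at either day (−0.70 and 1.15, interaction edgeR adjusted p 4.88e-06). Hif1a showed −0.68 and 0.45, and its day 3 call was kept without cKO replicate 4 and lost without any other day 3 library (edgeR adjusted p up to 0.0931). The day 3 call of Egln1 was lost without any day 3 library other than cKO replicates 2 and 4. Bnip3, a mitophagy receptor and classical hypoxia target, had 109, 112 and 111 CPM in control and 44.3, 41.8 and 32.3 CPM in cKO libraries at day 0 (−1.49, SE 0.0967, edgeR adjusted p 1.59e-06). At day 3 it was not called (0.34, 95% interval −0.19 to 0.87), but without cKO replicate 4 it was called higher (0.52, edgeR adjusted p 0.0163). Not every member was lower at day 0: the vasodilator peptide gene Adm (1.67) and the prolyl hydroxylase gene Egln3 (0.95) rose.

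Hypoxia-inducible factors bind the letters ACGTG, and for that reason the promoters of Bnip3 and of the glycolytic genes Hk2 and Pgk1 are shown, the last 2 picked for their matches. Each window holds 300 bases, from 250 before to 50 after the annotated start, and comes from RefSeq on GRCm38.p6, with every ACGTG on either strand in capitals. The windows are chr7:138909457-138909756 on the minus strand for Bnip3, chr6:82774405-82774704 on the minus strand for Hk2, and chrX:106186850-106187149 on the plus strand for Pgk1.
Bnip3: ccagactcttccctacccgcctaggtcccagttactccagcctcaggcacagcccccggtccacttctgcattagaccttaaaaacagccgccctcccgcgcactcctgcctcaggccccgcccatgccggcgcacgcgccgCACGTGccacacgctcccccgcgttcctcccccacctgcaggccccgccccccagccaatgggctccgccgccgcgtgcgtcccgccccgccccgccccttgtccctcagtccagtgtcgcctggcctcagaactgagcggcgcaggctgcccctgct
Hk2: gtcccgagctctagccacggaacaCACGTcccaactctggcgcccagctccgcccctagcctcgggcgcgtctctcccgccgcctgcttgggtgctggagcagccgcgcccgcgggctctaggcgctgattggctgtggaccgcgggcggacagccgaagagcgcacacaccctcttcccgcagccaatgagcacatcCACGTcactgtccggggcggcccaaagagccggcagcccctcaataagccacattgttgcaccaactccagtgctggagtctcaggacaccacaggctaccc
Pgk1: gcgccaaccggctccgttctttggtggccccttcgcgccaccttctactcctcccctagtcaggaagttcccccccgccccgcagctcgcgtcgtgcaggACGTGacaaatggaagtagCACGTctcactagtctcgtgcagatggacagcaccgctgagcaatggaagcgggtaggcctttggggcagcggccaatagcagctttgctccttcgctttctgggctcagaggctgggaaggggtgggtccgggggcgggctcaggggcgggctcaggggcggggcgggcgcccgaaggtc
In Bnip3 the 2 matches overlap on opposite strands and together spell the E-box CACGTG. Of the glycolytic genes with a window, 11 of 22 held ACGTG on either strand, and of the hypoxia genes 10 of 16 (62.5%). The germline genes, which rose in cKO cultures, held it in 17 of 26 windows (65.4%), so ACGTG was not confined to glycolytic and hypoxia genes. The background for ACGTG was 2823 of 11438 tested genes (24.7%). The longer E-box CACGTG, which contains ACGTG, was more frequent in the germline windows, in 10 of 26 (38.5%). It was in 3 of 22 glycolytic (13.6%) and 2 of 16 hypoxia windows (12.5%), with a background of 9.84%. A match is a description of these letters and not a binding site. Pgk1 itself was lower at day 0 (−0.78, edgeR adjusted p 2.14e-06) and not called at day 3 (0.07), with the interaction not called (edgeR adjusted p 0.0858).

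Complement and lysosomal genes had more members lower than higher at day 0, and the reverse at day 3. Of 11 complement genes tested at day 0, 5 fell and 3 rose (median −0.30), with 4 to 7 lower when any 1 day 0 library was left out. Of 12 tested at day 3, 8 rose and 0 fell (median 1.002), and the interaction was called for 8, all with the higher effect at day 3. C1rl, a C1r-like protease, had 9.61, 8.75 and 9.12 CPM in control and 5.34, 6.21 and 3.97 CPM in cKO libraries at day 0, and 17.3, 19.4, 16.9 and 11.7 CPM in control and 35.4, 27.4, 32.8 and 24.8 CPM in cKO libraries at day 3, with no overlap at either day. C3, the central component, rose at both days (1.59 and 4.30). Of 21 genes of lysosomes and autophagy, 13 fell and 3 rose at day 0, against 0 and 8 at day 3. Without cKO replicate 4 the day 3 counts were 3 and 8, and without control replicate 1 the higher ones were 4. The protease gene Ctsl was at 188, 179.7 and 181 CPM in control and 99.1, 118 and 109.9 CPM in cKO libraries at day 0, and its log2 fold change went from −0.75 to 1.22. Its day 3 call was lost without any 1 control library (edgeR adjusted p up to 0.0628), and its day 3 value was 0.64 without cKO replicate 4. When all 14 libraries were fitted together, 3 lysosomal genes were called lower at day 0 and 0 higher in edgeR, Ctsl not among them.

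Interstitial collagens, made by fibroblasts and bone cells, were lower in untreated cKO cultures beside the cartilage collagens. Of 16 genes, 10 fell and 1 rose at day 0 (median −0.45), with 4 higher without control replicate 1, and 4 fell and 0 rose with all 14 libraries in 1 fit. At day 3, 1 fell and 3 rose, or 4 and 5 without cKO replicate 4. Col1a1, a chain of type I collagen, was at 2677, 2256 and 1502 CPM in control and 1422, 1272 and 1121 CPM in cKO libraries at day 0, and at 5117, 4262, 4402 and 3699 CPM in control and 6794, 7234, 6677 and 9086 CPM in cKO libraries at day 3. It reversed (−0.75 and 0.77), whereas Col1a2, the partner chain, fell at day 0 and was within 2-fold at day 3 (−1.37 and −0.29). Among the enzymes that modify collagen, 16 of 19 fell at day 0 and 3 rose. P4ha3, a collagen prolyl hydroxylase subunit, went from −1.38 to 0.54 (interaction edgeR adjusted p 4.46e-05). Among 22 genes that build chondroitin sulfate and hyaluronan, 16 fell at day 0, led by Papss2 (−1.96), which makes the sulfate donor, and 1 rose, or 0 to 2 when any 1 library was left out. The hyaluronan synthase Has2 fell at day 0 (−1.01) and was within 2-fold at day 3 (95% interval −0.24 to 0.31).

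Genes of chondrocyte hypertrophy and mineralization, the state that BMP2 promotes, were mixed at day 0. Of 15 tested at day 0, 6 fell and 4 rose (median −0.55). The median was −0.32 without cKO replicate 2 and −0.11 without cKO replicate 3, and without cKO replicate 1 of day 0 the number that fell was 9. With all 14 libraries in 1 fit 5 fell and 1 rose. Of 16 tested at day 3, 4 fell and 9 rose (median 0.90). The bone sialoprotein gene Ibsp had 20.2, 18.3 and 12.6 CPM in control and 15.2, 1.14 and 0.390 CPM in cKO libraries at day 0. Here cKO replicate 1 lay among the controls and the other 2 cKO libraries far below. The gene was not called (−1.64, edgeR adjusted p 0.133), and without cKO replicate 1 it was called lower (−4.52, edgeR adjusted p 2.12e-05). Ihh, the signal of prehypertrophic cells, fell at both days (−2.58 and −2.88). Spp1 rose at both days (0.98 and 3.52).

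A second class of genes, likewise defined by its values, changed at least 2-fold at day 0 and had a 95% interval within 2-fold at day 3, with no call there and the interaction called. There were 79, of which 42 were higher and 37 lower at day 0, and 31 had an interval within 1.5-fold at day 3. The median log2 fold change of the 42 was 1.30 at day 0 and 0.04 at day 3, and of the 37 −1.23 and −0.06. In 39 of the 42 the control mean was higher at day 3 than at day 0. In 35 of the 37 the cKO mean was higher at day 3. That the genotypes drew closer follows from the definition of the class. A day 3 interval within 2-fold still admits a change of that size.

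Ccnd1, which encodes the G1 regulator cyclin D1, was among the clearest of the 42. It had 104, 99.3 and 98.0 CPM in control and 286, 272 and 302 CPM in cKO libraries at day 0 (1.51, SE 0.0438, edgeR adjusted p 1.48e-08). After BMP2 it had 381, 330.4, 447 and 355 CPM in control and 355, 352, 369 and 446 CPM in cKO libraries, and the groups overlapped (0.01, 95% interval −0.26 to 0.28, interaction edgeR adjusted p 4.46e-05). Camsap3, a protein of microtubule minus ends, had 7.19, 6.17 and 7.62 CPM in control and 18.8, 20.2 and 24.4 CPM in cKO libraries at day 0, and 4.07, 3.34, 3.66 and 2.84 CPM in control and 3.85, 3.73, 4.80 and 2.88 CPM in cKO libraries at day 3. Here both genotypes were lower at day 3 and overlapped. The bromodomain gene Brdt, normally a testis gene, rose by 1.40 at day 0 and had 0.25 at day 3 (95% interval −0.08 to 0.58). Control libraries had 2.06, 3.07 and 2.28 CPM of Brdt at day 0 and 6.11, 5.85, 4.65 and 5.68 CPM at day 3, so this gene was not silent in control cultures.

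Of the other 8 named genes of this kind, Palm3 (2.07 at day 0), Trp53inp1 (1.60), Igsf9b (2.04), Adamtsl5 (1.47) and the transcriptional cofactor gene Lmo1 (1.44) had no call at day 3, except that Trp53inp1 was called higher without control replicate 3 (0.35, edgeR adjusted p 0.0118). The other 3 lost their status without cKO replicate 4. Without it the actin-binding Ppp1r9a (1.76 at day 0) was called higher at day 3 (0.42, edgeR adjusted p 0.0259), and so was the G protein regulator Rgs2 (1.46 at day 0, then 0.60, edgeR adjusted p 0.0145). Tmem108 (1.40 at day 0) was called lower (−0.64, edgeR adjusted p 0.00516). Of 21 alternative settings, Ppp1r9a met all the criteria in 20, Tmem108 in 17 and Rgs2 in 10, where the loss came also without other single libraries of either day. Palm3 and Lmo1 met them in all 21 and Trp53inp1 in 18. Igsf9b met them in only 14 and Adamtsl5 in 13, with most losses without single day 3 libraries. At day 3 the log2 values were −0.04 for Palm3, 0.25 for Trp53inp1, 0.38 for Igsf9b, 0.43 for Adamtsl5 and −0.13 for Lmo1.

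Of the genes lower at day 0 and within 2-fold at day 3, C1qtnf3, a secreted protein of cartilage also called cartducin, had the lowest day 0 log2 fold change among the 12 named. It was at 123, 114 and 125 CPM in control and 34.1, 36.1 and 35.1 CPM in cKO libraries at day 0 (−1.78, SE 0.0434, edgeR adjusted p 4.50e-09), and at 225, 224, 182 and 284 CPM in control and 137, 200, 227 and 155 CPM in cKO libraries at day 3, where the groups overlapped (−0.35, 95% interval −0.77 to 0.08). Serpinf1, the antiangiogenic factor PEDF, had 133, 131 and 107 CPM in control and 44.8, 58.2 and 51.6 CPM in cKO libraries at day 0. The day 3 levels were 369, 300.5, 191 and 311 CPM in control and 265, 332, 313 and 299.8 CPM in cKO libraries (0.05, 95% interval −0.37 to 0.46). Igsf10, an immunoglobulin superfamily gene, went from −1.29 to 0.09, Lzts1 from −1.68 to −0.06, Mtus2 from −1.32 to −0.16 and Plscr2 from −1.36 to −0.28. Without control replicate 3 Plscr2 was called lower at day 3 (−0.46, edgeR adjusted p 0.0177). Adamts7, a protease of cartilage oligomeric matrix protein, went from −1.40 to 0.44, with no overlap of the groups at day 3 although it was not called (edgeR adjusted p 0.143). The neuronal nitric oxide synthase Nos1 (−1.57 at day 0) and the X-linked membrane protein gene Gpm6b (−1.56) met all the criteria in 6 and 11 of 21 alternative settings. The chromatin remodeller Chd5 (−1.35 at day 0) was called higher at day 3 without cKO replicate 4 (0.47, edgeR adjusted p 0.0331).

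**Figure D3:**
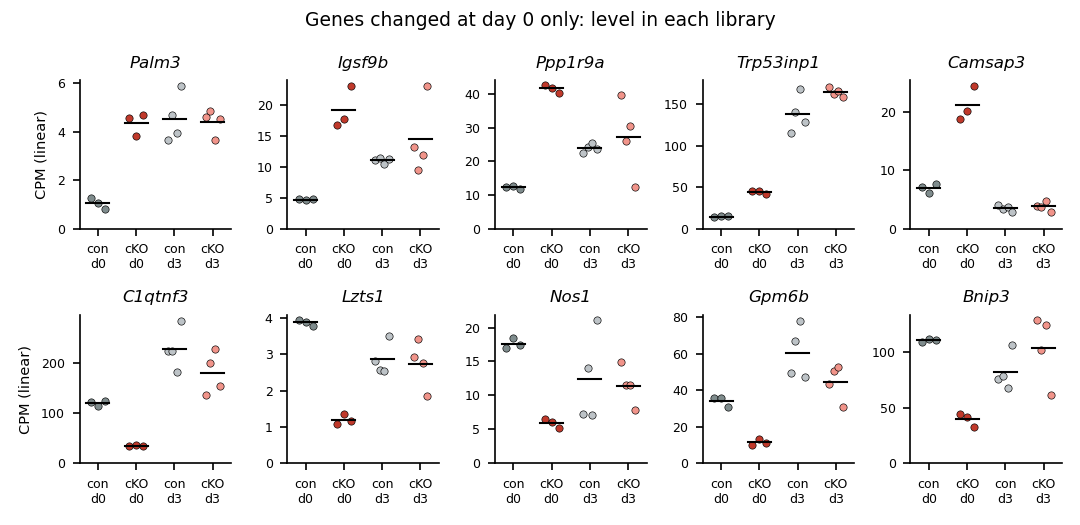
Level in CPM (linear axis) of 5 leading genes of each direction among those changed at least 2-fold at day 0 and within 2-fold at day 3, 1 point per library and a bar at each group's mean, for control (grey) and cKO (red) cultures at day 0 (d0, n = 3 each) and day 3 (d3, n = 4 each). The genotypes are apart at day 0 in all 10 panels, which the rule for naming these genes required, and overlap at day 3. For Ppp1r9a and Bnip3 the lowest cKO point at day 3 is replicate 4.

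Targets of the tumour suppressor p53, which act in growth arrest and cell death, were higher in untreated cKO cultures. Of 18 genes, 16 rose and 1 fell at day 0 (median 0.55), and 4 rose and 2 fell at day 3 (median 0.01). The interaction was called for 9 of the 18, all with the lower effect at day 3, a call that 6.89% of all genes had. Cdkn1a, the Cdk inhibitor p21, had 121, 114 and 119 CPM in control and 235, 224 and 251 CPM in cKO libraries at day 0. All cKO libraries were higher, by 1.004 on the log2 scale (SE 0.0452, edgeR adjusted p 2.06e-07). The day 3 levels were 643, 538, 522 and 587 CPM in control and 531, 533, 544 and 607 CPM in cKO libraries, where the groups overlapped (−0.05, 95% interval −0.26 to 0.17). The ectodysplasin receptor gene Eda2r (0.87 and −0.26) was not called at day 3, and the proapoptotic Bbc3 reversed (0.40 and −0.38). Plk2, Btg2 and Pmaip1 rose at both days (1.49 and 1.11 for Plk2, 1.08 and 1.15 for Btg2, 1.42 and 1.84 for Pmaip1). With all 14 libraries in 1 fit, 14 were called higher at day 0.

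Cell cycle genes had small rises at day 0. All 22 mitosis genes tested were called higher, with a median of 0.51, led by Anln (0.78), which acts in cytokinesis, and Cenpf (0.73). Of 24 DNA replication genes 22 rose and 0 fell (median 0.43), led by the origin licensing factor Cdc6 (0.83). With the spread of all 14 libraries in 1 fit, 1 mitosis gene and 6 replication genes were called higher. At day 3, 0 mitosis genes were called, or 7 without cKO replicate 4, and the interaction was called for 0 in edgeR, so a difference between the days was not shown. The Cdk inhibitor locus Cdkn2a had 0.545, 0.751 and 0.465 CPM in control and 3.94, 3.39 and 3.14 CPM in cKO libraries at day 0 (2.56, SE 0.196, edgeR adjusted p 4.35e-06). The imprinted inhibitor Cdkn1c fell (−1.33).

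Genes of cholesterol synthesis were lower at day 0 and mostly level at day 3. Of 24, 19 fell and 3 rose at day 0 (median −0.51). Of 23 tested at day 3, 4 fell and 5 rose (median 0.10), and the interaction was called with the higher effect at day 3 for 15 and with the lower for 2. Sqle, the squalene epoxidase of the pathway, had 71.9, 76.3 and 74.5 CPM in control and 45.6, 45.2 and 46.9 CPM in cKO libraries at day 0, with the fall called (−0.69, SE 0.0372, edgeR adjusted p 5.75e-07), and was not called at day 3 (−0.08). Msmo1 and Lss, enzymes of the later steps, fell at day 0 (−0.93 and −0.89). The transcription factor Srebf2, which drives the pathway, fell at day 0 (−0.63, edgeR adjusted p 2.54e-07) and was not called at day 3 (0.05). The lipid transfer gene Stard4 fell at both days (−0.70 and −1.500).

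Genes of fatty acid synthesis were mostly lower at both days. Of 13 genes, 10 fell and 1 rose at day 0 (median −0.99), and 8 fell and 2 rose at day 3. Scd1, a desaturase, had 132, 138 and 149 CPM in control and 37.8, 33.5 and 31.7 CPM in cKO libraries at day 0, with no overlap (−2.02, SE 0.0681, edgeR adjusted p 3.69e-08). The desaturases Fads1 (−1.68), Fads2 (−1.62) and Scd2 (−1.23) fell too. For Scd2 the fall was smaller at day 3 (interaction edgeR adjusted p 0.00305). Acsl3, an acyl-CoA synthetase gene, reversed (−0.59 and 0.46).

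Other lists had most of their members on the same side at both days. All 13 heat shock and chaperone genes rose at day 0 (median 0.67), and 11 rose with all 14 libraries in 1 fit. Hspa1a, an inducible Hsp70 gene, had 2.35, 2.82 and 2.46 CPM in control and 27.8, 24.7 and 23.6 CPM in cKO libraries at day 0. Its log2 fold change of 3.31 was larger than the 1.33 of day 3 (interaction edgeR adjusted p 6.34e-04), and its near-identical neighbour Hspa1b, whose reads may be shared, showed 3.42 and 1.78. Hspb1 rose alike at both days (3.16 and 3.13). All 16 genes of the ATF4 and amino acid response fell at day 0 (median −0.63), with Ddit3, the stress factor CHOP, the lowest (−1.71), and 12 fell at day 3. Of 30 cytosolic ribosomal protein genes 27 fell and 0 rose at day 0 (median −0.30), though 5 fell with all 14 libraries in 1 fit. Contractile genes and targets of SRF and YAP, factors that respond to actin and tension, rose in 17 of 19 with 0 lower, the largest being Ankrd1 (6.22 and 10.59).

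**Figure D4:**
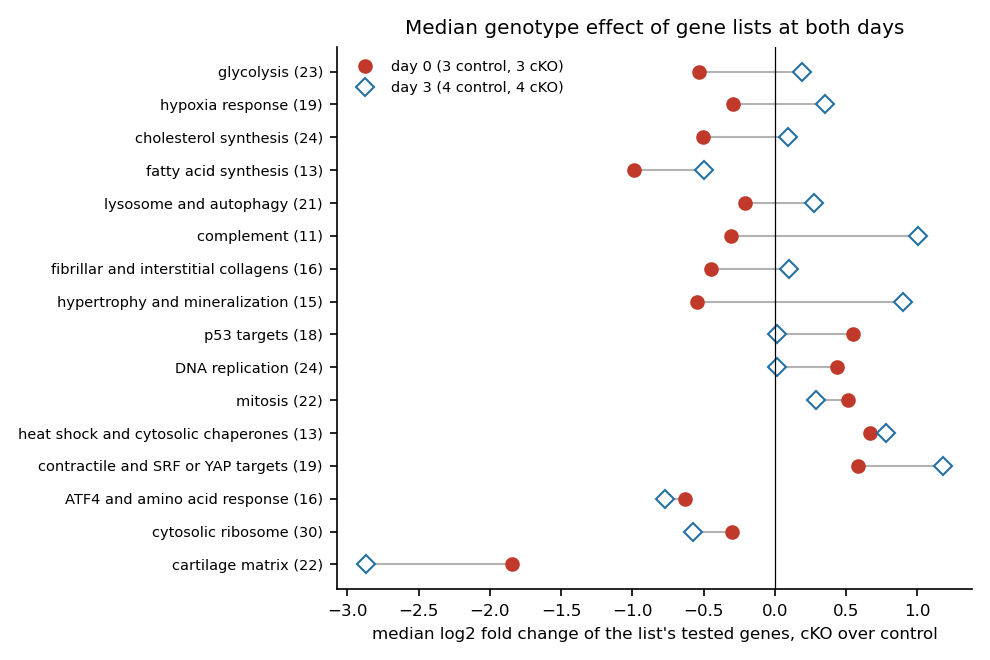
Median log2 fold change of cKO over control for 16 gene lists at day 0 (red circles) and day 3 (blue diamonds), with the number of genes tested at day 0 in brackets. Glycolysis, hypoxia response, cholesterol synthesis, lysosome, complement, interstitial collagen and hypertrophy medians lie below 0 at day 0 and above 0 at day 3, while heat shock, contractile, ATF4, ribosome and cartilage matrix medians keep their side.

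Immune genes were already higher in untreated cKO cultures, but in part. Of 24 interferon response genes 19 rose and 3 fell at day 0 (median 1.68), whereas all 26 tested at day 3 rose. The 3 that fell, Ifi44, Dhx58 and Ifi27, all reversed (−0.55 and 2.94, −0.99 and 1.88 and −0.20 and 0.85). None of these 3 was called lower with all 14 libraries in 1 fit. The day 0 call of Ifi44 was lost without cKO replicate 3 (−0.44, edgeR adjusted p 0.0519) and that of Ifi27 without cKO replicate 3 or control replicate 2 or 3 (edgeR adjusted p up to 0.0993). Gbp2, a guanylate-binding protein gene, rose alike at both days (4.62 and 4.25). Of 13 genes of class I antigen presentation, 10 rose and 0 fell at day 0. The immunoproteasome subunit Psmb8 (4.52 and 4.43) and the peptide transporter subunit Tap2 (2.39 and 1.93) rose at both days. The light chain gene B2m had 85.0, 82.2 and 80.0 CPM in control and 84.3, 87.2 and 84.7 CPM in cKO libraries at day 0 and was not called (0.05, edgeR adjusted p 0.196). At day 3 it was higher (1.77, interaction edgeR adjusted p 4.46e-05), and the heavy chain gene H2-K1 showed the same order (0.12 and 3.19). Among acute phase and NF-kB genes the siderophore-binding Lcn2 reversed (−0.53 and 3.36), though its day 0 call was lost with all 14 libraries in 1 fit.

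Some genes changed at day 0 and did not pass the filter at day 3, so that they have no day 3 test of their own. The interaction was called for 45 of these 732 genes, 23 higher and 22 lower at day 0. Among genes called higher at day 0, the 6 named ones with the largest rise were Zscan4c, Usp17le, Zscan4e, Xlr5a, Zscan4f and Clec2g. The Zscan4 genes mark a transient state of mouse embryonic stem cells that resembles the early embryo. Zscan4f had 0.0210, 0 and 0.0221 CPM in control and 4.10, 4.42 and 2.75 CPM in cKO libraries at day 0, at least 59.2-fold higher against the floor of 3 counts per library. At day 3 it had 0 CPM in all 4 control libraries and 0.408, 0.202, 0.270 and 0 CPM in the cKO libraries. Zscan4c was at 0 CPM in every control library and at 2.60, 3.54 and 1.503 CPM in cKO at day 0 (at least 40.2-fold higher). Near-identical family members can share reads, so the families were also summed, a step chosen after values were seen. The 9 Zscan4 genes together had 16.1, 18.2 and 10.4 CPM in cKO and at most 0.147 CPM in control libraries at day 0. At day 3 they had 1.57, 0.353, 1.67 and 0.184 CPM in cKO and at most 0.279 CPM in control libraries. The 4 Usp17l genes, deubiquitinases, had 6.12, 6.93 and 3.90 CPM in cKO against 0.168 to 0.421 CPM in control libraries at day 0, and overlapped at day 3 (0.353 to 0.919 CPM in cKO, 0.406 to 0.806 CPM in control). The X-linked Rhox homeobox genes differed at both days, with 67.2 to 72.3 CPM in cKO against 0.461 to 0.598 CPM in control libraries at day 0 and 38.1 to 44.9 against 0.334 to 0.867 CPM at day 3. All 28 germline genes tested at day 0 rose, and 21 of 23 tested at day 3. Depth was lower at day 3, where 3 counts corresponded to 0.151 to 0.211 CPM. Of the 9 Zscan4 and 4 Usp17l genes 0 could be tested there. The interaction was called for 1 of 8 Zscan4 genes, 2 of 3 Usp17l genes and 0 of 15 Rhox genes tested for it. The day 0 controls of 8, 3 and 18 genes of these families were at or under the floor, so their fitted values depend on the prior count.

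In the other direction, Zfp648, Magel2, Zcchc12, Prkcb, Tnmd and Adrb1 fell at day 0 and were under the filter at day 3. Magel2, an imprinted gene, had 41.5, 39.5 and 37.8 CPM in control and 3.11, 4.80 and 1.82 CPM in cKO libraries at day 0 (−3.63, SE 0.240, edgeR adjusted p 1.79e-06). The kinase gene Prkcb had 6.77, 6.98 and 6.80 CPM in control and 0.737, 0.726 and 0.668 CPM in cKO libraries (−3.27). Tnmd, a tendon membrane protein, was at 2.81, 1.58 and 1.15 CPM in control and 0.161, 0.396 and 0.111 CPM in cKO libraries. At day 3 control cultures too had little of these 3: 1.90, 1.23, 0.558 and 3.04 CPM of Magel2, 0.421, 1.84, 1.73 and 1.62 CPM of Prkcb and 0, 0.0557, 0.0620 and 0 CPM of Tnmd.

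Genes that rose from the floor were unevenly spread over the chromosomes. In 266 genes called higher at day 0 every control library was at the floor of 3 counts, whereas 6 genes called lower had every cKO library there. Of the 266, 72 lay on the X chromosome, which was 11.9% of the 607 genes tested there. On the 19 autosomes the share was 0.248 to 2.77%, highest on chromosome 7. The share of tested genes higher by at least 2-fold was 20.8% on X and 7.43 to 14.5% on the autosomes, and the share lower by as much was 6.10% on X and 2.60 to 6.35% on the autosomes. Families such as Rhox and Xlr lie in clusters of near-identical copies on X, and their genes are not independent. Both genotypes held 1 library with Ddx3y, as given above.

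**Figure D5:**
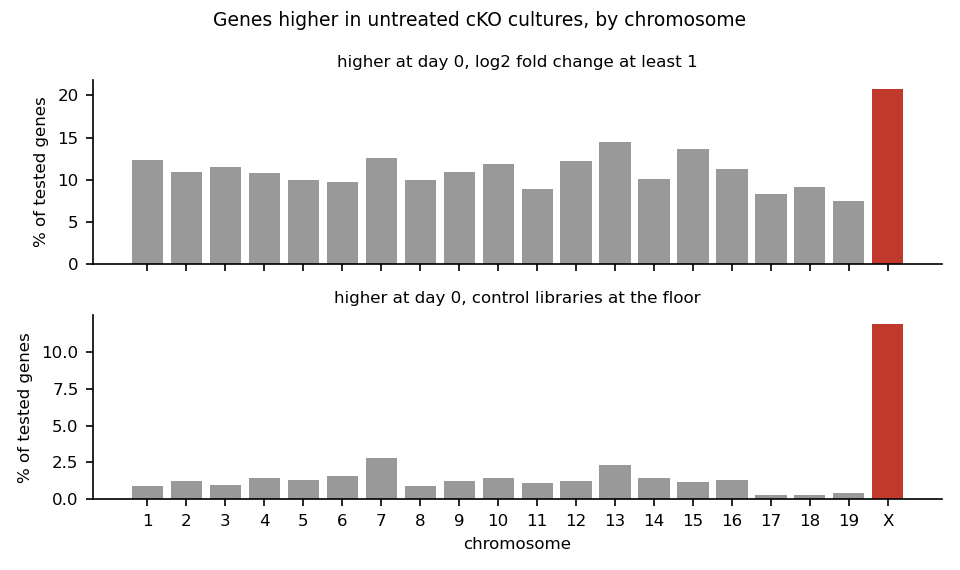
Percentage of the genes tested on each chromosome that were higher in cKO cultures at day 0, by at least 1 on the log2 scale (upper panel) and from control libraries all at the floor of 3 counts (lower panel), for the 19 autosomes (grey) and X (red). X has the highest bar in both panels, 20.8% and 11.9%.

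Markers of the labelled cell type and of others were summed per library. The 16 chondrocyte markers together made up 159970 to 169240 CPM in control and 54769 to 67155 CPM in cKO cultures at day 0, and all 16 fell. Both genotypes thus held the defining cartilage transcripts. In these bulk cultures fewer chondrocytes and less of these RNAs per chondrocyte cannot be told apart. The 10 fibroblast markers summed to 4987 to 7304 CPM in control and 2924 to 3565 CPM in cKO cultures, with 7 lower and 2 higher. The 14 skeletal muscle markers summed to 7.13 to 8.28 and 42.1 to 53.5 CPM, and 5 of the 7 that could be tested rose. Myod1, the myogenic master regulator, was at 0 CPM in every control and at 13.3, 7.92 and 11.5 CPM in cKO libraries, but Pax7 was at 0 CPM in all 6 and Myog and Myf5 were at most 0.0230 CPM. Of 15 sarcomere genes tested at day 0, 9 rose and 1 fell, against all 19 at day 3, and the calcium channel gene Ryr1 reversed (−0.80 and 4.52), with no day 0 call when all 14 libraries were in 1 fit. At day 3 the muscle markers summed to 172 to 2020 CPM in cKO libraries. The 13 macrophage and osteoclast markers summed to 161 to 166 CPM in control and 79.5 to 94.1 CPM in cKO libraries, most of it Ctsk (157 to 161 and 71.0 to 85.0 CPM). Of 8 tested 5 rose and 1 fell. Adgre1, Tyrobp and C1qa were at most 0.122 CPM in the day 0 libraries, and C1qb reached 0.308 CPM. Other markers were low but higher in cKO libraries. Cd68 was at 0.886 to 1.18 CPM in control and 2.13 to 2.60 CPM in cKO, and Cd14 at 0.419 to 0.731 and 1.76 to 2.14 CPM. Csf1r was at 0.221 to 0.566 and 0.798 to 1.36 CPM, and Ptprc at 0.0419 to 0.266 and 0.330 to 0.779 CPM. For Lyz2 the groups overlapped. The 7 endothelial markers summed to 2.08 to 2.81 CPM in control and 5.41 to 6.95 CPM in cKO libraries, and the 5 epithelial ones to 2.03 to 2.40 and 8.30 to 13.3 CPM. All 3 endothelial markers tested rose, but Cdh5, Kdr, Emcn and Cldn5 were at most 0.242 CPM in the day 0 libraries. Among 4 epithelial markers tested 1 rose and 0 fell. Most of the epithelial sum in cKO libraries was Krt8, at least 6.87 CPM there and at most 1.26 CPM in control. Epcam, Krt5, Krt14 and Cdh1 were each at most 0.967 CPM in the day 0 libraries. Osteoblast markers summed to 1594 to 2764 and 1183 to 1540.4 CPM, pericyte and smooth muscle markers to 1650.4 to 1689.8 and 1602 to 1874 CPM, and adipocyte markers to 50.1 to 54.6 and 55.6 to 71.0 CPM. The osteoblast sum was mostly Col1a1, which is also counted in the fibroblast sum. Of 6 osteoblast markers tested 2 rose and 1 fell. Erythroid markers reached 0.266 CPM at most. Schwann and neural markers summed to 156 to 169.8 CPM in control and 45.5 to 52.6 CPM in cKO libraries, led by S100b, which chondrocytes also express. The part of such cells in the results above was not tested.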

How the data were processed

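RNA-seq of 14 culture libraries was used, 3 per genotype at day 0 and 4 per genotype at day 3. The values are expected counts (estimated counts that need not be whole) per gene, as deposited by the authors in 1 table for each day. Reads were assigned to GRCm38, per the submitters' processing notes, and the aligner and counter are not given in the sources used here. Counts were rounded to whole numbers (27.5% of day 0 and 20.5% of day 3 values were not whole), filtered with filterByExpr (minimum count 10, minimum total 15) and scaled by TMM. Each day was fitted alone with edgeR 4.0.16 (quasi-likelihood test, Benjamini-Hochberg adjusted p under 0.05), and the interaction was fitted over all 14 libraries. DESeq2 1.42.0 and limma 3.58.1 served as alternatives, under R 4.3.3, with other scaling and filters, a replicate block and each library left out in turn. The edgeR steps were tested on simulated data.

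Genes named for the opposite and within 2-fold classes were, per direction, the 12 protein-coding genes with mean log2 CPM of at least 1 with the largest effect at the weaker day (opposite) or the largest day 0 effect (within 2-fold), all with groups that did not overlap (at day 0 only for the second class). For genes under the day 3 filter the 6 largest effects per direction were named, and by abundance the 8 largest CPM changes. These too were limited to protein-coding genes without placeholder names. From each list, up to 6 called members with the largest day 0 effect, up to 4 with the largest called interaction, and any member of a short list or cell type marker list could be named. Any other gene was chosen after its values were seen. Members and lists were chosen with earlier results of these data known. Some genes that met these rules are not reported here.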

Additional observations from a re-analysis of the deposited data

Results flagged for a closer look

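Control or cKO groups of 4 at day 3 were screened for a library far from the other 3 in the named genes, and at this threshold chance picks about 1 in 20 groups. Of 96 groups, 9 had such a library. The highest control library was far above the others for F5 (7.52 CPM), Fos (5.51 CPM), Lrp4 (49.2 CPM) and Lmo1 (5.48 CPM), and the lowest far below for Pcdh1 (2.04 CPM). The highest cKO library was far above the others for F5 (27.3 CPM), Pcdh1 (17.3 CPM), Adamtsl5 (32.6 CPM) and Adamts7 (10.965 CPM). Groups of 3 at day 0 were not screened.

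The genotype effect differed between the days in the interaction for 2509 genes. The named genes among them follow, with the day 3 minus the day 0 log2 effect. A called interaction was part of the definition of both classes, so these values are descriptions. Of the genes that were higher at day 0 and lower at day 3, the difference was −3.76 for Cd34, −3.81 for Lrrn3, −2.36 for Eln, −1.74 for Efemp1, −1.42 for Thy1, −1.95 for Grk5 and −1.66 for Chst7. It was −1.56 for Mertk, −1.49 for Tst, −1.27 for Dcxr, −1.48 for Mkx and −1.19 for Efnb2. Of the genes that were lower at day 0 and higher at day 3, it was 2.91 for F5, 2.95 for Fos, 3.90 for Fam167a, 2.69 for Fap, 2.10 for Lrp4, 2.15 for Dusp27 and 2.02 for Fosb. It was 2.70 for Pcdh1, 3.83 for Pamr1, 4.72 for Gpx3, 3.49 for Cemip and 1.91 for Gas6.

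Genes higher at day 0 and within 2-fold at day 3 had differences of −2.13 for Palm3, −1.69 for Igsf9b, −1.59 for Ppp1r9a, −1.37 for Trp53inp1 and −1.47 for Camsap3. The values were −1.53 for Ccnd1, −1.06 for Adamtsl5, −1.03 for Rgs2, −1.59 for Lmo1, −1.89 for Tmem108 and −1.17 for Brdt. Genes lower at day 0 and within 2-fold at day 3 had 1.42 for C1qtnf3, 1.61 for Lzts1, 1.43 for Nos1, 1.10 for Gpm6b, 1.81 for Bnip3 and 1.81 for Adamts7. They had 1.06 for Col1a2, 1.06 for Plscr2, 1.70 for Chd5, 1.14 for Mtus2, 1.36 for Igsf10 and 1.29 for Serpinf1.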

How the results depend on the processing

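The number of genes called at day 0 was 10023 and fell to 6260 with all 14 libraries in 1 fit. The interaction count of 2509 was 1554 with the replicate block, 4701 by limma voom with quality weights and 4237 when each day was fitted apart, and 1591 to 4051 when any 1 library was left out. The 338 opposite genes became 221 with all 14 libraries in 1 fit (142 shared with the 338) and 541 by limma voom (326 shared), and 247 to 489 when any 1 library was left out. The 79 genes within 2-fold at day 3 became 31 with the limit at 1.5-fold and 58 to 106 when any 1 library was left out. With the replicate block 230 genes were opposite (217 shared) and 62 within 2-fold (56 shared). Replicate numbers share no stated origin, and same-numbered libraries had correlations of their deviations of −0.0466, −0.0634 and 0.140 at day 0 and −0.145 to −0.0640 at day 3, so the block was not used as the main design. The causes were not tested. Among genes named for their class or their abundance, no called value changed sign at day 0 or day 3 in the edgeR and DESeq2 settings run. At day 3 the depth was lower, and effects there were less precise.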

Other observations

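Imprinted genes, normally expressed from 1 parental allele that methylation marks, moved in both directions at day 0. Of 22 tested, 15 fell and 5 rose (median −0.38), and of 21 tested at day 3, 11 fell and 2 rose. Beside Peg10, Igf2 and Magel2, the zinc finger gene Zim1 fell at both days (−3.03 and −4.42), as did Grb10, an adaptor that restrains insulin signalling (−1.09 at day 0). Of the 14 genes of the insulin-like growth factor axis, 5 fell and 3 rose at day 0. Pappa2, a protease of the binding proteins, was at 7.93, 3.55 and 3.96 CPM in control and 1.20, 0.924 and 0.742 CPM in cKO libraries at day 0 (−2.44, edgeR adjusted p 1.79e-04), with no overlap, and was not called at day 3 (−0.63). The binding protein Igfbp6 rose at both days (1.26 and 2.45).

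In the BMP pathway 11 of 26 genes rose and 10 fell before any BMP2 was added. Among the ligands, Gdf6 had 0.210, 0.386 and 0.421 CPM in control and 1.36, 1.45 and 2.26 CPM in cKO libraries at day 0 (2.32, edgeR adjusted p 1.47e-04). Gdf5, a joint ligand, rose (1.36), while Bmp6 fell (−1.83). The inhibitory Smad7 rose (1.09), and the secreted antagonists Grem1 (−1.03) and Chrdl1 (−1.01) fell. Of 18 genes of the NRF2 and oxidative stress response 12 rose and 4 fell, and the rises included those of the quinone reductase Nqo1 (0.92) and the thioredoxin reductase Txnrd1 (0.93). Of 13 genes of serine and one-carbon metabolism 9 fell and 3 rose, the lowest being the mitochondrial folate enzyme Aldh1l2 (−1.24). Prrx1, the limb mesenchyme factor whose promoter drives the Cre, was at 84.1, 83.7 and 77.8 CPM in control and 67.3, 67.4 and 64.5 CPM in cKO libraries at day 0 (−0.30) and was higher in cKO cultures at day 3 (0.67).

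The Y-linked demethylase gene Kdm5d was at 1.64, 1.77 and 32.6 CPM in control and 11.9, 11.5 and 35.7 CPM in cKO libraries at day 0. In the 2 libraries of each genotype with at most 1.06 CPM of Ddx3y, Kdm5d was higher in cKO than in control.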
